A study of Mus musculus with 4 samples.

Results

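The ribosomal DNA (rDNA) block is a stretch of mouse chromosome 17 (mm10) that holds a copy of part of the 45S ribosomal RNA gene, and on which reads from many rDNA repeats collect in the alignment. Its members, selected on their position and on their calls per CpG, were all CpGs of a 6 kb stretch with at least 5 methylation calls in both deposited tables. There were 597 members, from 39843001 to 39848822, out of 17634196 CpGs of the series that met the same minimum. No CpG listed in the stretch fell short of it. The calls chose the members, so they are given below as a description. The levels were known when the block was chosen, so they support nothing beyond their own values.

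Germline stem (GS) cells are spermatogonial stem cells of the mouse kept in culture, where they renew themselves and can still give rise to sperm. The 60M-GS and 5M-GS cells had been cultured for about 60 and about 5 months, with 2 replicates per age. Both came from testis of "Green" mice, whose transgene Tg14(act-EGFP)OsbY01 is of C57BL/6 origin, on a DBA/2 background, and both were labelled wild type and grown with human FGF2, rat GDNF and fetal bovine serum. Methylation came from bisulfite sequencing of the whole genome, with adaptors joined after the bisulfite step (PBAT), and each age was deposited as 1 table with its replicates pooled. No spread between replicates could therefore be measured, and every test compares the 2 pooled tables rather than the culture ages as such. Every interval (95%) covers counting error only, with each call taken as independent. Neighbouring CpGs share reads, so intervals over many CpGs are too narrow even for that. The labels do not say whether the replicates, or the 2 ages, came from separate cultures. The totals were 471693518 calls in 60M-GS and 468121185 calls in 5M-GS, with a median per CpG of 22 calls in 60M-GS, against 21 calls in 5M-GS. As a check of the labelled cell type, the promoter windows of 5 germ cell genes that somatic cells methylate (Dazl, Ddx4, Mael, Sycp3 and Tdrd1) stood at 0.684% to 4.90% in 60M-GS and 2.79% to 5.77% in 5M-GS. Dnd1, also listed for this check, had no tested window. In wider windows, from 2000 bp upstream, the 5 genes stood at 1.23% to 23.9% in 60M-GS and 2.64% to 23.9% in 5M-GS.

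Ribosomal RNA genes lie in arrays of many near-identical repeats, on several chromosomes, and are transcribed by RNA polymerase I in the nucleolus into a 45S precursor that is cut into the 18S, 5.8S and 28S RNAs of the ribosome. A cell uses part of its repeats. Silent repeats carry CpG methylation, which in mouse blocks the binding of the activator UBF at the promoter and is laid down with the help of the nucleolar remodelling complex NoRC, built on the protein Baz2a.

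Methylation of the block was more than 2 times as high in 60M-GS as in 5M-GS. Over all calls, 62.8% of 769544 calls were methylated in 60M-GS (Wilson interval 62.7 to 62.9), against 27.5% of 848439 calls in 5M-GS (27.4 to 27.5). The difference was 35.4 points (Newcombe interval 35.2 to 35.5). The median member stood at 62.7% in 60M-GS, with quartiles of 56.0% and 69.4%, and at 26.1% in 5M-GS, with quartiles of 21.1% and 33.1%. In 60M-GS 520 of the 597 members were above 50%, and in 5M-GS 11 were. The upper quartile of 5M-GS thus lay below the lower quartile of 60M-GS, although single members of both tables overlapped. Whether more copies per cell or more cells carried methylation cannot be told apart in such bulk tables.

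**Figure D1:**
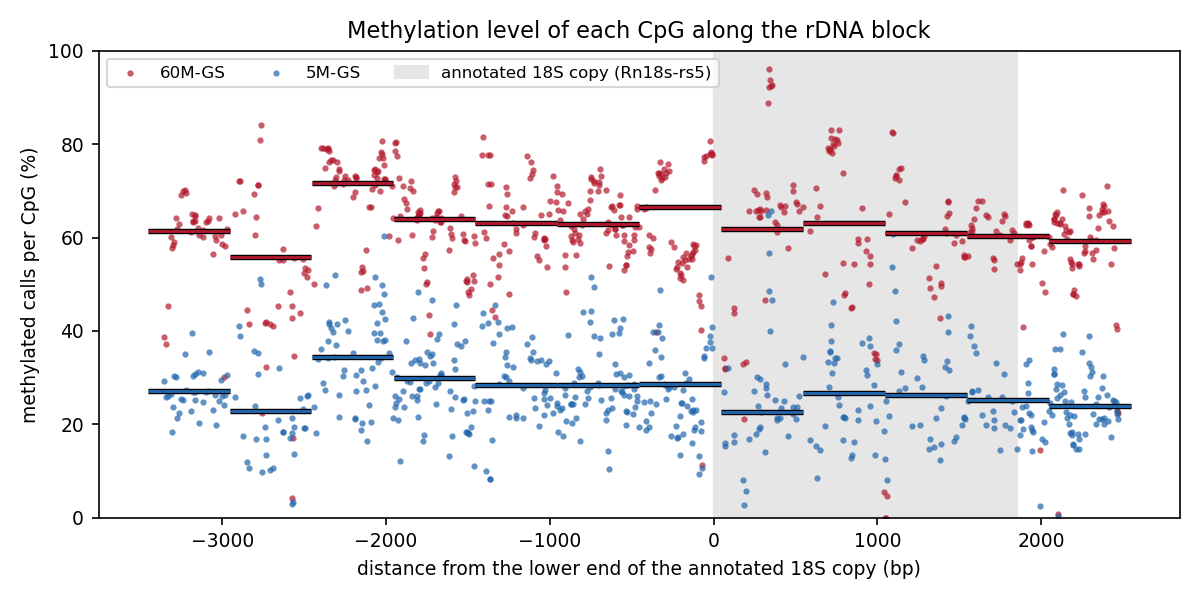
Level of each of the 597 CpGs (dots, percent of methylated calls) against the distance in bp from the lower end of the annotated 18S copy (shaded), in 60M-GS (red) and 5M-GS (blue); horizontal lines are levels over all calls in bins of 500 bp. The bins lie at 55.9% to 71.8% in 60M-GS and at 22.6% to 34.5% in 5M-GS, with no overlap.

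Member by member the difference was one-sided. It was above 0 at 592 members and below 0 at 5. By Fisher's exact test on single CpGs (two-sided, Benjamini-Hochberg adjustment over all 17634196 CpGs, at least 20 points), 540 of the 597 members (90.5%) were called higher in 60M-GS, against 1.76% of all CpGs tested. None was called lower, with 0.179% called over all CpGs; 1 member was lower by at least 20 points without passing the test. A call also needs depth, and of 4745 CpGs elsewhere with over 100 calls in both tables, 19.6% were called higher and 0.126% lower. Most members were deeper than that. Of the 440 CpGs elsewhere with over 1000 calls in at least 1 table, 347 (78.9%) were called higher and none lower. Of the 57 members not called, 41 were not higher by 20 points and the other 16 missed only the adjusted p.

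The annotation used here places 1 ribosomal RNA copy in the block, Rn18s-rs5, a pseudogene of the small-subunit 18S RNA from 39846354 to 39848202. The lncRNA gene AY036118, on the minus strand from 39848112 to 39898385, overlaps the span of the members with its last 711 bases. These run from inside the upper end of the 18S copy upward and take in all 82 members above it. The strand of Rn18s-rs5 is not given in the tables used, so the remaining members are described as lying below or above it in coordinates, and the promoter, 5.8S and 28S parts were not assigned. The nearest other annotated genes were Esp15, 197334 bp below, and Esp38, 101698 bp above, both of the family of exocrine gland-secreting peptides.

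The difference was of like size in the 3 parts of the block. The 140 members inside the 18S copy stood at 61.8% in 60M-GS, against 26.0% in 5M-GS (35.8 points higher, interval 35.6 to 36.1). The 375 members below it stood at 64.3% (60M-GS) against 29.0% (5M-GS), a difference of 35.3 points (35.1 to 35.5). The 82 members above it stood at 58.4% (60M-GS) against 23.3% (5M-GS), a difference of 35.1 points (34.7 to 35.5). In both tables the level was thus highest below the 18S copy and lowest above it, while the differences lay within 1 point of each other. Of the members called higher, 126 lay inside the 18S copy, 338 below it and 76 above it.

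In bins of 500 bp the difference ran from 32.9 points in the second bin, between 39843431 and 39843878 (55.9% in 60M-GS, 23.0% in 5M-GS), to 39.3 points in the eighth, between 39846417 and 39846876 at the lower end of the 18S copy (61.9% in 60M-GS, 22.6% in 5M-GS). The third bin, between 39843916 and 39844394, had the highest level in both tables, at 71.8% in 60M-GS, against 34.5% in 5M-GS. The second bin, next to it, had the lowest level in 60M-GS. The first bin, at the lower end of the block, stood at 61.5% (60M-GS) against 27.2% (5M-GS), and the last, at its upper end, at 59.2% (60M-GS) against 24.0% (5M-GS).

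The same difference can be put as the unmethylated share that was left. This share was 37.2% in 60M-GS, against 72.5% in 5M-GS, a ratio of 0.512. By bin the ratio lay between 0.431 and 0.573, and over members its median was 0.519, with quartiles of 0.443 and 0.581. Among the 120 members with the lowest levels in 5M-GS, the level was 53.6% in 60M-GS, against 16.6% in 5M-GS, which is 37.0 points apart and a ratio of 0.556. Among the 120 with the highest, it was 70.7% (60M-GS) against 40.8% (5M-GS), a difference of 29.9 points and a ratio of 0.495. Both sets were picked on one of the compared levels, which lets its counting error into the contrast.

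**Figure D2:**
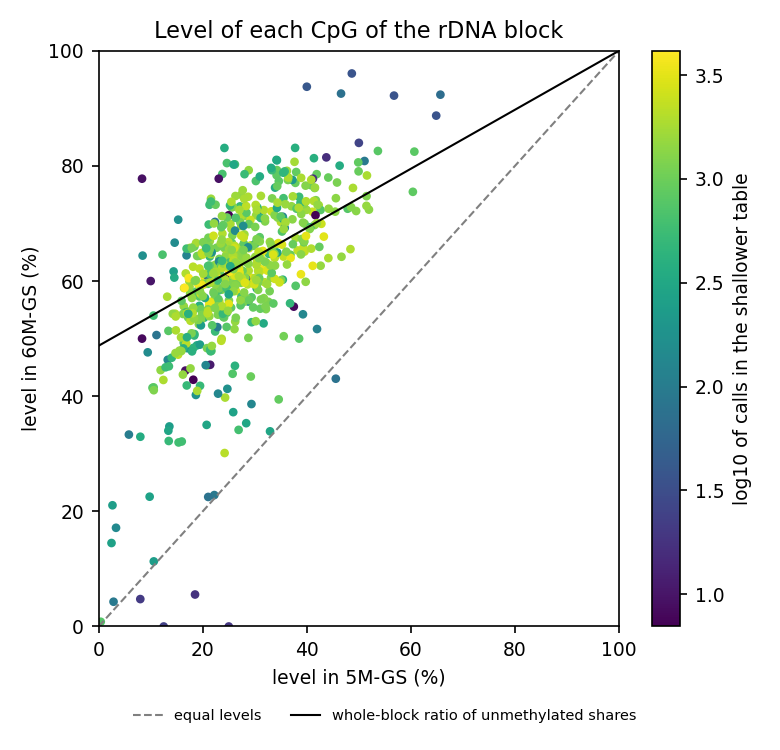
Level of each of the 597 CpGs in 60M-GS (vertical axis, %) against 5M-GS (horizontal axis, %), coloured by the log10 of its calls in the shallower table; the dashed line marks equal levels and the solid line the whole-block ratio of unmethylated shares, 0.512. In all, 592 of the 597 points lie above the dashed line, and the points scatter around the solid one.

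Single members still differed from each other beyond counting error. Among the 562 members with at least 100 calls in both tables, the differences had an SD of 8.84 points, against a median counting error of 1.79 points for a single member. Of these 562, 9 differed by under 10 points, 23 by 10 to 20, 117 by 20 to 30, 274 by 30 to 40, 124 by 40 to 50 and 15 by 50 or more. Members high in one table tended to be high in the other, with Pearson's r of 0.628 and Spearman's rho of 0.615 across these 562 CpGs, which come from the same 2 tables, share reads with their neighbours and are not independent.

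The largest difference among members of this depth was at 39847120, inside the 18S copy, with 83.1% of 456 calls in 60M-GS, against 24.2% of 360 calls in 5M-GS (58.9 points, interval 53.0 to 64.2, adjusted p = 9.37e-63 by Fisher's exact test). The deepest member of both tables, 39847819, stood at 58.8% of 4142 calls (60M-GS) against 16.5% of 4636 calls (5M-GS). At the border of the 18S copy, the last member below it, 39846345, stood at 78.0% (60M-GS) against 36.4% (5M-GS), whereas the first inside it, 39846417, stood at 34.2% of 612 calls (60M-GS) against 26.9% of 911 calls (5M-GS) and was not called (7.26 points, adjusted p = 0.121 by Fisher's exact test). At the upper border the step was smaller, with 61.0% (60M-GS) against 22.6% (5M-GS) at 39848188 and 54.3% (60M-GS) against 14.7% (5M-GS) at 39848203. The outermost members of the block differed little, at 38.6% of 132 calls (60M-GS) against 29.4% of 235 calls (5M-GS) for the first (39843001) and 22.5% of 80 calls (60M-GS) against 21.1% of 114 calls (5M-GS) for the last (39848822).

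A few members were low in both tables and differed little. At 39848454, above the 18S copy, methylated calls were 7 of 854 in 60M-GS (0.820%), against 3 of 746 in 5M-GS (0.402%), while the median of the members above the 18S copy was 59.5% (60M-GS) against 22.5% (5M-GS). At 39846280 the levels were 11.3% of 345 calls (60M-GS) against 10.6% of 236 calls (5M-GS), and at 39843779 they were 4.30% of 93 calls (60M-GS) against 2.86% of 105 calls (5M-GS). Bisulfite sequencing reads a T in the DNA itself as an unmethylated call, and whether the repeats carry a CpG at these positions was not tested. Other members low in 5M-GS did differ. Examples were 39848347, at 14.5% of 269 calls (60M-GS) against 2.47% of 365 (5M-GS), and 39843787, at 17.1% of 140 calls (60M-GS) against 3.33% of 240 (5M-GS). Of the 5 members with a lower value in 60M-GS, 4 were neighbours inside the 18S copy, from 39847391 to 39847412, together at 2.44% of 82 calls in 60M-GS, against 15.7% of 108 calls in 5M-GS. One of them, 39847406, had 0 of 19 calls in 60M-GS, against 6 of 24 in 5M-GS (-25.0 points, adjusted p = 0.569 by Fisher's exact test). None of these 4 passed the test.

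The highest levels lay in a shallow cluster inside the 18S copy. The member highest in 60M-GS, 39846690, stood at 96.1% of 76 calls in 60M-GS, against 48.6% of 37 calls in 5M-GS. Close by, 39846705 was the highest in 5M-GS, at 92.4% of 118 calls in 60M-GS, against 65.7% of 67 calls in 5M-GS. The run of 4 shallow members from 39846685 to 39846696 stood at 92.8% in 60M-GS, against 52.3% in 5M-GS, so both tables were well above their block level there. The largest difference of any member, at 39844988, rested on few calls, with 7 of 9 methylated in 60M-GS, against 1 of 12 in 5M-GS (69.4 points), and was not called (adjusted p = 0.0950 by Fisher's exact test).

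Neighbouring CpGs resembled each other over short distances. For the 587 pairs of members 2 to 10 bp apart, the difference between the tables had a correlation of 0.586 and the levels one of 0.795 in 60M-GS, against 0.584 in 5M-GS. For the 2554 pairs 11 to 50 bp apart the correlations were 0.213 for the difference, 0.350 for 60M-GS and 0.235 for 5M-GS, and for the 6185 pairs 51 to 150 bp apart they were 0.0315, 0.0575 and -0.0333 in the same order. Pairs within 10 bp differed from each other by a median of 1.68 points in 60M-GS and 5.54 points in 5M-GS. These pairs share reads and a table, and are given as a description.

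The block stood out by its calls. Members had a median of 1245 calls in 60M-GS, from 7 to 4142, and of 1372 in 5M-GS, from 8 to 4636, where all CpGs tested had a median of 23 in both tables. That is 54.1 times the usual depth in 60M-GS and 59.7 times in 5M-GS, and 402 members had over 1000 calls in at least 1 table. Just inside the minimum lay 39843781, with 7 calls in 60M-GS, against 11 in 5M-GS, and 39845005, with 9 in 60M-GS, against 8 in 5M-GS. The nearest listed CpGs outside the stretch, 39842839 and 39849015, had 9 calls in 60M-GS, against 12 in 5M-GS, and 1 call in either table. The depth thus ended with the block on both sides.

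**Figure D3:**
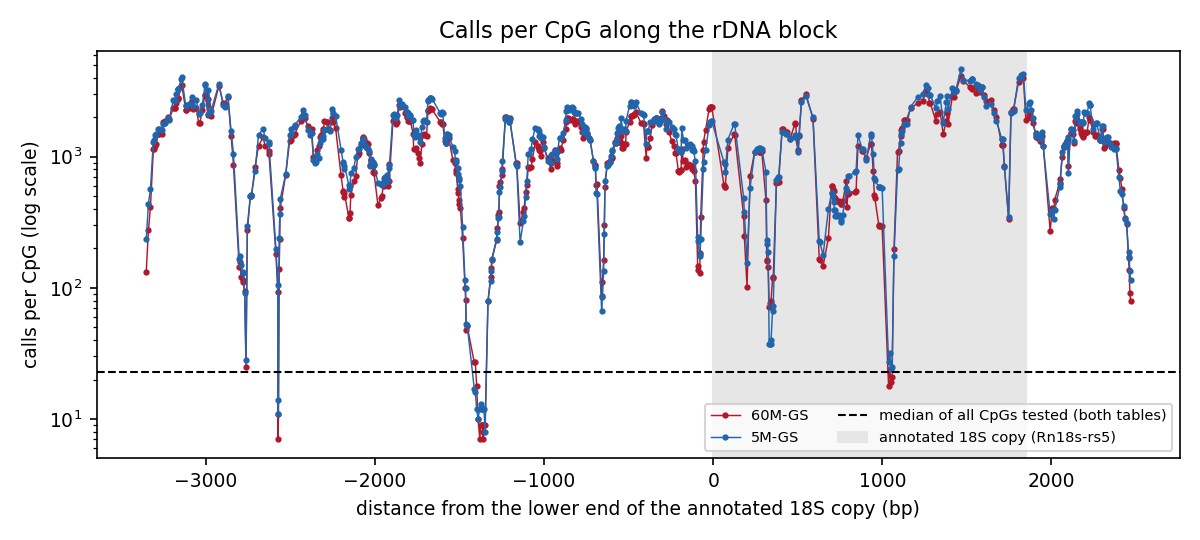
Calls per CpG (log scale) against the distance in bp from the lower end of the annotated 18S copy (shaded), in 60M-GS (red) and 5M-GS (blue), with the median of all CpGs tested, 23 calls, as a dashed line. The 2 tables follow each other closely, with the same narrow dips and the same peaks.

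Depth along the block had nearly the same shape in both tables, with Pearson's r of 0.985 and Spearman's rho of 0.971 between the log10 calls over the 597 members. It fell in narrow dips, the widest a run of 16 members from 39844890 to 39845022 with under 100 calls in both tables and medians of 9.5 calls in 60M-GS, against 12 in 5M-GS. The level over all calls was alike in shallow and deep members. The 35 members with under 100 calls in at least 1 table stood at 62.5% in 60M-GS, against 29.98% in 5M-GS, the 201 with 100 to under 1000 calls in the shallower table at 61.8% (60M-GS) against 26.8% (5M-GS), and the 361 with 1000 or more at 63.0% (60M-GS) against 27.6% (5M-GS). The calls themselves need that depth. With the calls of every CpG scaled down to at most 100, 521 of the 597 members were called higher (87.3%), against 1.76% of all CpGs. Scaled down to the usual depth of 23, 8 members were (1.34%), near the 1.25% of all CpGs. Scaling kept each level and rounded its counts, whereas CpGs already at that depth kept their own counting noise. These 2 shares are therefore not strictly alike.

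Relative to the rest of each table, the block held slightly fewer calls in 60M-GS, and their makeup differed more. It held 1750 calls per 1000000 calls on CpGs with at most 1000 calls in 60M-GS, against 1958 in 5M-GS, a ratio of 0.894. On this scale methylated calls were 1100 in 60M-GS, against 537 in 5M-GS, a ratio of 2.05. Unmethylated calls were 651 in 60M-GS, against 1420 in 5M-GS, a ratio of 0.458. Fewer calls in 60M-GS were not particular to the block. Without scaling, the ratio of all calls was 0.907 in the block and 0.923 over the 440 CpGs elsewhere with over 1000 calls. It was 1.01 over all other CpGs with at most 1000 calls. These numbers were not tested, since calls per CpG chose the members and no replicate spread is known. The number of repeats per cell and the recovery of their reads cannot be told apart in them.

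**Figure D4:**
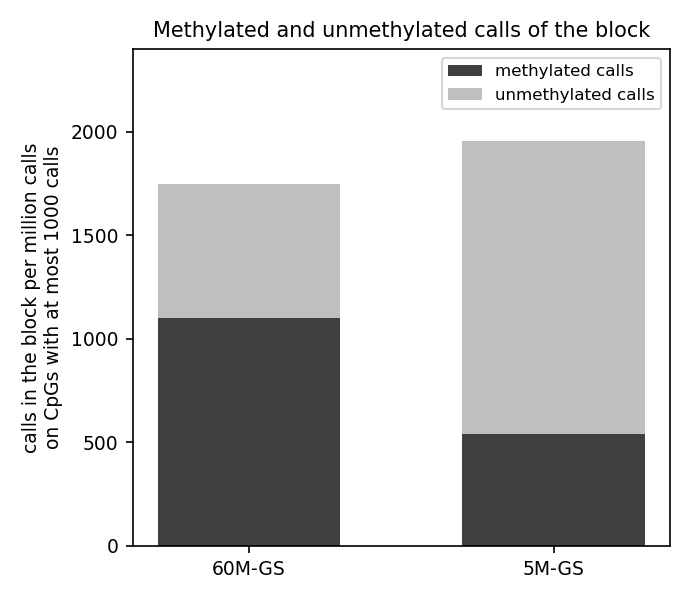
Methylated (dark) and unmethylated (light) calls of the block per 1000000 calls on CpGs with at most 1000 calls, in 60M-GS and 5M-GS, 1 pooled table each. The dark part is 1100 in 60M-GS, against 537 in 5M-GS, and the light part 651 in 60M-GS, against 1420 in 5M-GS.

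Flanking DNA was also more methylated in 60M-GS, by less in points. The 720 CpGs within 100 kb on either side stood at 84.1% in 60M-GS, against 62.7% in 5M-GS, and so lay 21.4 points apart. The block's difference was 13.9 points larger (Wald interval over calls 12.9 to 14.9). On the scale of unmethylated shares the order was the other way, with a ratio of 0.426 in the flanks and 0.512 in the block. This reversed order depended on the width of the flanks. The ratio was 0.472 in flanks of 1000 kb, but 0.519 in flanks of 20 kb, slightly above that of the block. Of the 720 CpGs, 96 were called higher and none lower, again against 1.76% and 0.179% of all CpGs. The part of AY036118 outside the block, 184 CpGs, stood at 86.0% (60M-GS) against 58.8% (5M-GS), and its promoter window at 90.4% of 94 calls (60M-GS) against 42.0% of 81 calls (5M-GS), over 5 CpGs (adjusted p = 7.50e-11 by Fisher's exact test over promoter windows). The window of Esp38 stood at 87.8% in 60M-GS, against 67.6% in 5M-GS, over 4 CpGs (adjusted p = 0.00124 by Fisher's exact test). Both were called higher, as were 4.48% of all promoter windows, but the window of Esp38 was not when it was widened to 2000 bp upstream, where the difference was 19.4 points. All other CpGs of the genome with at most 1000 calls stood at 75.8% (60M-GS) against 74.5% (5M-GS).

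Few stretches of the genome differed by as much. Of 332948 windows of 6 kb outside the block with at least 20 CpGs, 3.4% had a level at least 20 points higher in 60M-GS, and 2015 (0.605%) differed by at least as much as the block. Of the 6124 windows whose 5M-GS level lay within 5 points of the block's, 199 (3.25%) differed by as much, and their median difference was 1.36 points. Of the 1411 windows with at least 200 CpGs, 4 did. No 6 kb window elsewhere held more than 416 CpGs, whereas the block's 597 lay 9.77 bp apart on average.

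Other CpGs with stacked calls varied widely. The 440 CpGs outside the block with over 1000 calls in at least 1 table stood at 85.4% in 60M-GS, against 47.3% in 5M-GS over all calls. The block's difference minus theirs was -2.80 points over all calls (Wald interval -2.94 to -2.65), but 3.27 points when every CpG weighed the same, so the 2 sets have no fixed order. Chromosome 2 held 27624259 of the 31384019 calls of these CpGs in 60M-GS, and without it the pooled difference was -4.84 points. Per CpG, the 440 differed by a mean of 30.8 points and a median of 35.4, against 34.1 and 34.6 points in the block. Among all 1882 CpGs outside the block with over 200 calls, the mean difference per CpG was 16.2 points and the median 7.40. On chromosome 11 the 35 CpGs with over 1000 calls stood at 35.9% in 60M-GS, against 36.8% in 5M-GS, 24 of them in a stretch within Sfi1 at 14.1% in 60M-GS, against 16.1% in 5M-GS. The 9 on chromosome 15 were 9.12 points higher in 60M-GS, and the 167 on chromosome 9 were 44.0 points higher. The 70 on chromosome 2, the 40 on chromosome 14 and the 44 on chromosome 16 were 37.8, 37.3 and 38.2 points higher. The 18 on chromosome 6 were 22.4 points higher. The ratio of unmethylated shares over all 440 was 0.276, and 0.512 in the block. Among stretches of at least 10 such CpGs, 2 chosen after their values were seen had levels near those of the block: chromosome 16 from 57391481 to 57391622, inside Cmss1 and Filip1l, with 21 CpGs at 64.8% (60M-GS) against 27.6% (5M-GS), and chromosome 3 from 5860619 to 5860740, outside annotated genes, with 16 CpGs at 61.3% (60M-GS) against 29.8% (5M-GS). Whether these stretches hold rDNA sequence was not tested.

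The array of the 5S ribosomal RNA genes, which RNA polymerase III transcribes, differed less over its span. Over the span of the 48 annotated copies on chromosome 8, 43 CpGs stood at 68.1% of 2171 calls in 60M-GS, against 65.9% of 2010 calls in 5M-GS (2.20 points higher, Newcombe interval -0.645 to 5.06). The block's difference was 33.2 points larger (Wald interval over calls 30.3 to 36.0). Inside the 5S genes themselves 3 CpGs were measured, all with a higher value in 60M-GS, at 46.8% of 77 calls in 60M-GS, against 29.5% of 78 calls in 5M-GS (17.3 points higher, Newcombe interval 1.98 to 31.5), and there the block's difference was 18.1 points larger (Wald interval 3.06 to 33.2). None of the 43 was called by Fisher's exact test, where 1.76% of all CpGs were called higher and 0.179% lower. By at least 20 points 5 were higher and 1 lower. These CpGs had a median of 26 calls in both tables. With the block's calls scaled down to at most 23 and its levels kept, 8 of its 597 members were called. The lack of calls here thus decides nothing.

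**Figure D5:**
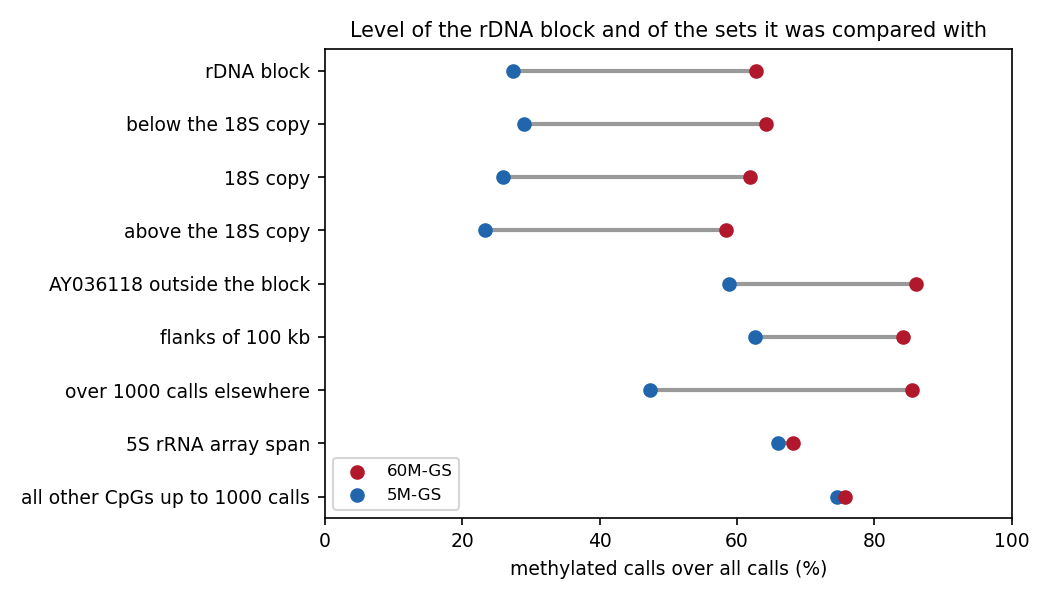
Level over all calls (%) in 60M-GS (red) and 5M-GS (blue) for the block, its 3 parts and the sets it was compared with, 1 pooled table per age. The 2 points lie 35.4 points apart for the block, 21.4 for the flanks and 2.20 for the 5S array.

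Promoters of the genes that transcribe, silence and process rDNA were mostly low in both tables in windows from 1000 bp upstream, less so in wider ones. Of 35 listed genes, 32 were tested in a promoter window (1000 bp upstream to 500 bp downstream of the outermost annotated start) with at least 4 CpGs, and Kdm2a, Npm1 and Fbl were not tested. By Fisher's exact test with at least 20 points, adjusted over 25074 windows, 1 was called higher and none lower, where 4.48% of all windows were called higher and 0.499% lower. The median difference was 0.260 points, against 0.140 over all windows, and 29 of the 32 windows were under 10% in both tables. Without the limit on size, 5 of the 32 passed the adjusted p with a higher and 1 with a lower level in 60M-GS, where 15.6% of all windows passed with a higher and 4.87% with a lower level. In windows from 2000 bp upstream, 10 of the 32 passed with a higher level and none with a lower one, where 21.6% and 7.29% of all such windows did. Of these wider windows, 16 of the 32 were under 10% in both tables. Their median difference was 1.11 points, against 0.340 over all such windows. Baz2a, the large subunit of NoRC, stood at 0.380% (60M-GS) against 0.827% (5M-GS), and Ubtf, which encodes UBF, at 11.9% (60M-GS) against 13.4% (5M-GS); neither passed the test.

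The window called higher was that of Taf1c, a subunit of the selectivity factor SL1 that brings RNA polymerase I to the rDNA promoter. It stood at 37.1% of 2018 calls in 60M-GS, against 8.76% of 2100 calls in 5M-GS (28.3 points higher, Newcombe interval 25.9 to 30.7, adjusted p = 1.74e-107 by Fisher's exact test). The change lay at both ends of the window and spared the start. The 13 CpGs from 352 to 585 bp upstream had a median of 81.8% in 60M-GS, from 37.5% to 96.3%, and of 4% in 5M-GS, from 0% to 12.5%. Farther out, the 8 CpGs from 640 to 1000 bp upstream were already partly methylated in 5M-GS. Their median there was 49.7%, from 40.6% to 71.1%, against 91.1% in 60M-GS. The 5 CpGs from 427 to 496 bp downstream had a median of 28.6% in 60M-GS, against 0% in 5M-GS. The 30 CpGs from 122 bp upstream to 386 bp downstream were at most 3.23% in 60M-GS, against 2.63% in 5M-GS, and 27 of them had no methylated call in each table. The RefSeq sequence around the start (GRCm38.p6, chr8:119605157-119605456, minus strand, 250 bases before to 50 after), shown because the edge of the change falls in it, has its 15 CpGs in capitals.
Taf1c: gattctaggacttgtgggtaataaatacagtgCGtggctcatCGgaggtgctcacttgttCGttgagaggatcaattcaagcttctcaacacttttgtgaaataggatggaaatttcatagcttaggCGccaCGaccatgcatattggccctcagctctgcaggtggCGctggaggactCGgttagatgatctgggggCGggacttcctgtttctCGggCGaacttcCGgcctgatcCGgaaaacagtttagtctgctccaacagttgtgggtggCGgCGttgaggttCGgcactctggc
The first 3 CpGs of this sequence, 189 to 217 bp upstream, stood at 34.3% to 41.9% in 60M-GS, against 0% in 5M-GS, and over all 15 the level was 7.81% (60M-GS) against 0.169% (5M-GS).

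Of the other listed genes, the largest differences were those of Znrd1, a subunit of RNA polymerase I (5.37% in 60M-GS, 1.82% in 5M-GS), Suv39h1, a histone H3 lysine methyltransferase of silent rDNA (4.48% in 60M-GS, 7.44% in 5M-GS), Atrx, a chromatin remodeller (7.24% in 60M-GS, 4.40% in 5M-GS), and Dnmt1, the maintenance DNA methyltransferase, at its outermost annotated start (92.1% in 60M-GS, 94.3% in 5M-GS). All 4 were under the 20-point limit. Of these, Znrd1 (adjusted p = 1.37e-07) and Suv39h1 (adjusted p = 0.0345) passed Fisher's exact test on the adjusted p alone. In the window from 2000 bp upstream Znrd1 passed again, whereas Suv39h1 stood at 14.5% in 60M-GS, against 14.3% in 5M-GS (0.21 points, adjusted p = 0.971 by Fisher's exact test), so its lower level did not hold. Dnmt1 did not pass in the narrower window (adjusted p = 0.567 by Fisher's exact test). In the wider one it passed with a higher level, at 89.6% in 60M-GS, against 81.2% in 5M-GS (8.35 points, adjusted p = 4.73e-08 by Fisher's exact test).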

How the data were processed

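CpG methylation of 60M-GS and 5M-GS cells came from bisulfite sequencing, with 2 replicates per age. The submitters' processing notes name Bismark 0.10.0 and the build mm10. Per the labels, each deposited table serves both replicates of an age, so replicates were pooled by the authors. How reads were filtered or strands merged is not given in the sources used here. The authors' tables hold raw counts of methylated and unmethylated calls per CpG, with 1 position per CpG. The deposited percent column equals the methylated share of these counts and served only as a check. Every listed position inside the RefSeq promoter sequences (400010) was the C of a CG, counted from 1.

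From the counts, levels, 95% Wilson and Newcombe intervals, and two-sided Fisher's exact tests per CpG and per promoter window were computed (Python 3.11.15, numpy 2.4.6, scipy 1.17.1), with Benjamini-Hochberg adjustment over all CpGs or windows. Gene positions and promoter sequences came from RefSeq (GRCm38.p6, the build mm10), with strands from the promoter table. Calls needed an adjusted p under 0.05 and at least 20 points. The tests were tried on simulated data with independent calls, which cannot show how they behave where calls share reads or replicates vary. Members, gene lists and comparisons were chosen with earlier results of these data known. CpGs named were the first, last, highest, lowest, deepest, shallowest, most and least changed members and those at part borders; genes named were those in or next to the block and list members called or most changed. Calls without molecular identifiers are not independent molecules, and neighbouring CpGs share reads. Intervals and tests took every call as independent. Intervals over many CpGs are therefore too narrow even for counting error, and p-values of promoter windows are too small. The alternatives tried were other call minimums, weights, size limits, depths, bins, flanks and promoter windows.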

Additional observations from a re-analysis of the deposited data

How the results depend on the processing

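The tables pool the replicates, so no replicate could be left out. No paired analysis was possible because the columns carry no replicate numbers. The annotated 45S span was not run, since the annotation used lists no such gene; the 18S copy took its place, chosen after seeing the data, as were calls scaled to at most 100, the median of ratios and 2 further sets of high depth. No alternative changed the direction of the block's difference of 35.4 points: it was 34.1 as a mean over CpGs, 36.6 between medians, 35.7 without the tenth of members with the most calls and 35.8 in the 18S copy. Members called higher numbered 540 of 597, and 126 of 140 in the 18S copy. With a minimum of 1000 calls they were 355 of 361 (98.3%), against 317 of 382 CpGs elsewhere (83%). With calls scaled to the median depth, where fewer calls enter each test, they were 8 of 597 (1.34%), against 1.25% of all CpGs. At a limit of 10 points 559 were called (1.76% of all CpGs), and at 30 points 421 (1.73% of all CpGs). None was called lower in any setting. The spread of the difference over bins was 6.38 points, and 4.42 with bins of 1000 bp. The median ratio of unmethylated shares was 0.519. The excess over flanks of 20 kb was 17.8 points. Against CpGs of high depth, the difference of -2.80 points was -2.41 with over 200 calls and -4.84 without chromosome 2. As a mean over CpGs it was 3.27, and 17.9 with over 200 calls; the cause of these reversals was not tested.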
